A study of Mus musculus with 16 samples.

Results

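The genes described here form the unfolded protein response and the machinery that brings secretory proteins into the endoplasmic reticulum (ER). These 37 genes were listed by name, with earlier results of these data known. Of these, 36 were measured by a probe set with a single gene symbol, out of 22180 genes measured that way, and Pdia4 was not analysed here. They were followed in group 2 innate lymphoid cells (ILC2s), tissue lymphocytes that secrete type 2 cytokines, on 16 Affymetrix arrays of total RNA. Lung ILC2s of C57BL/6J mice came from naive animals (2 arrays) and from animals given the cytokine IL-33 into the nose, at day 4 (3 arrays), week 2 (3 arrays) and 4 months (2 arrays). Cells of the node draining the lung, the mediastinal lymph node (mLN), came from IL-33-treated mice at day 4 (3 arrays) and week 2 (3 arrays), with tissue and time as the only attributes tagged, so that their strain is not given. Every array is labelled a biological replicate, but whether an array holds 1 animal or a pool, the sex and age of the mice, the dose and schedule of IL-33 and the markers used for sorting are not stated in these sources. The p-values therefore measure the spread between these arrays. All values are log2 signals made by the authors with the RMA procedure, and a gene is represented by its brightest probe set.

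The ER folds the proteins that a cell secretes. When unfolded protein builds up there, the sensors Ire1 (gene Ern1), Atf6 and Perk start the unfolded protein response: Ire1 splices the Xbp1 message into that of an active transcription factor, Atf6 is cut to release another, and Perk phosphorylates the initiation factor eIF2-alpha, which slows translation and raises Atf4. Ddit3 (CHOP) and Ppp1r15a (GADD34) act downstream of Atf4, and GADD34 guides a phosphatase to eIF2-alpha and so restores translation. The targets include chaperones, disulfide isomerases and the parts of ER-associated degradation, which sends misfolded proteins to the proteasome. Activated ILC2s secrete large amounts of IL-5 and IL-13, and secretory proteins of this kind enter the ER through the Sec61 channel.

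Sequence elements linked to the response were looked for in the promoters of the members whose values are compared below. RefSeq promoters of the mouse assembly GRCm38.p6, from 250 bases before to 50 after each gene's start, were found for 30 of the 36 members. On either strand, the ER stress response element ERSE (CCAAT, any 9 bases, then CCACG) was in 8 of these 30, namely Calr, Canx, Creld2, Dnajc3, Hsp90b1, Hspa5, Pdia6 and Syvn1, and in 0.119% of 32851 promoters. The element ERSE-II (ATTGG, any base, then CCACG) was in 2, Herpud1 and Dnajb11 (0.0365% of promoters), and UPRE (TGACGTGG) was in 0 (0.676%). The cyclic AMP response element CRE (TGACGTCA) was in 1, Ppp1r15a (1.79%), and the Atf4 element CARE (TGATGNAAN) in 1, Herpud1 (3.95%). The windows below run 5′ to 3′ on the strand of the gene, with the element in capitals, and show 4 members with ERSE, Herpud1 with ERSE-II and Ppp1r15a with CRE. A match describes letters in a window and was not tested as a binding site.
Hspa5, chr2:34772005-34772063, plus strand: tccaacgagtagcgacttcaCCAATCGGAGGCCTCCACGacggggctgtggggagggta
Canx, chr11:50325780-50325838, minus strand: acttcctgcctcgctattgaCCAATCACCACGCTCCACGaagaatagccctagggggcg
Pdia6, chr12:17266471-17266529, plus strand: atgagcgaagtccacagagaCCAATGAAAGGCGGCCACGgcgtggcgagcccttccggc
Dnajc3, chr14:118937807-118937865, plus strand: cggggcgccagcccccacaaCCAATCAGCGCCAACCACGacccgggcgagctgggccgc
Herpud1, chr8:94386357-94386407, plus strand: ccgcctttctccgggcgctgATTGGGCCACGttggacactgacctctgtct
Ppp1r15a, chr7:45526269-45526300, minus strand: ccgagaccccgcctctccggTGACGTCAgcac

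Several arrays stood apart, which bears on all that follows. The interquartile range of log2 signal over genes was 2.39 to 2.45 on the naive arrays and 2.05 to 2.47 at 4 months, against 2.85 to 3.07 on the other arrays, and replicates correlated at 0.937 and 0.947 in these groups against 0.977 or more elsewhere. The mean of 10 ILC2 markers, Gata3 and Il7r among them, was between 8.94 and 9.61 on every array. The mean of 12 macrophage markers was 6.09, 6.14 and 4.59 on day 4 lung replicates 1, 2 and 3, and 4.37, 4.18 and 5.54 at week 2. It was 4.27 to 5.12 in the naive and 4-month lung and 3.78 to 4.02 in the node. The mean of 8 T cell markers was 6.01 to 6.43 in naive lung and 4.17 to 4.81 on the other arrays. The means of 9 markers of B and plasma cells, a cell type rich in this machinery, lay between 4.02 and 4.96 and were highest at 4 months. Those of 7 epithelial markers lay between 3.75 and 5.38, and of 6 mast cell and basophil markers between 2.76 and 3.69. Single markers ranged more widely than these means. Cpa3, of the mast cell and basophil markers, was at 8.60, 8.77 and 8.14 in day 4 node and at 4.75, 5.35 and 5.28 at week 2. The macrophage marker Chil3 was at 11.39, 11.43 and 9.19 in day 4 lung and at 5.88, 5.52 and 10.61 at week 2. The T cell marker Cd3e was at 8.99 and 9.37 in naive lung and at 5.30 to 6.81 elsewhere. The epithelial marker Scgb1a1 ranged widely too. It was at 9.92, 7.97 and 7.58 in day 4 lung, at 11.02, 10.17 and 6.31 at week 2, and at 3.77 to 5.06 in naive and 4-month lung. In the node it was at 8.58, 2.78 and 4.77 at day 4 and at 2.60 to 4.08 at week 2. The part of these transcripts in the results was not tested except where a value without the arrays is given. In bulk RNA, fewer cells that express a gene and less of its RNA per cell cannot be told apart.

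**Figure D1:**
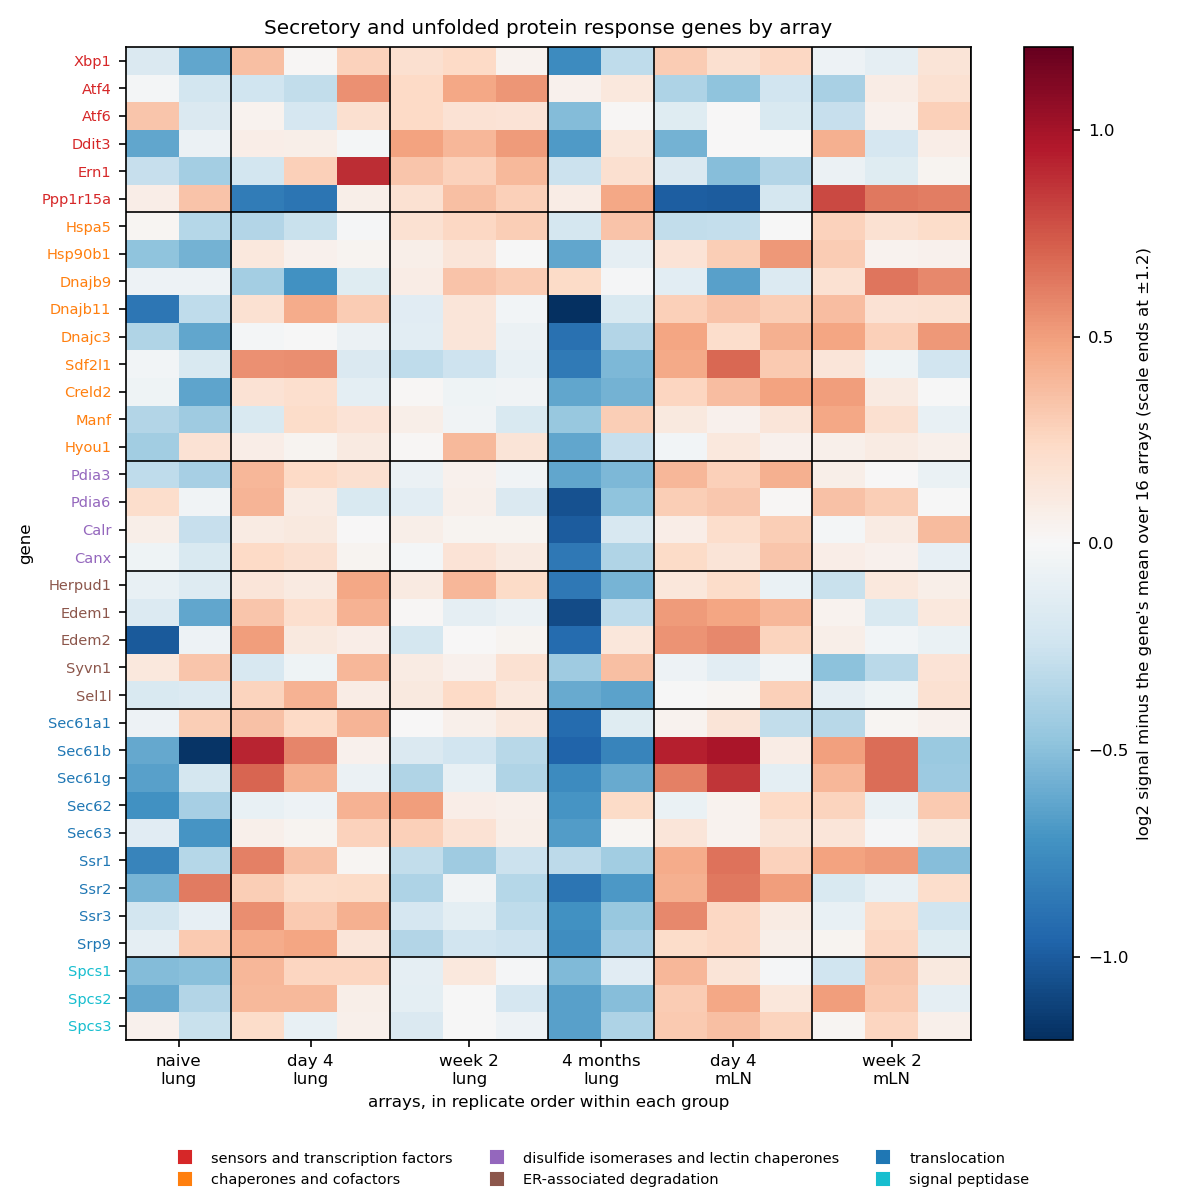
Log2 signal of the 36 measured members on each of the 16 arrays, drawn as the difference from the member's mean over all arrays and ordered by role (rows) and by group (columns). Most rows are above their mean on the day 4 arrays and below it at 4 months. Ppp1r15a, Dnajb9 and Hspa5 are below it on the day 4 arrays, apart from Ppp1r15a on day 4 lung replicate 3.

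Between day 4 and week 2 after IL-33, Ppp1r15a, Dnajb9 and Hspa5 lay on the opposite side from most genes of entry into the ER. In the node, Ppp1r15a rose from day 4 to week 2 by 1.41 ± 0.25 (log2, standard error; adjusted p = 0.00375, limma). It was the only member of 36 that passed an adjusted p of 0.05 there, where 0.528% of all genes were called higher and 1.18% lower. Dnajb9, a cofactor of the chaperone BiP that dampens Ire1, was 0.78 ± 0.20 higher (adjusted p = 0.0552). Hspa5, which encodes BiP, the chaperone that holds the sensors inactive, was 0.43 ± 0.18 higher (adjusted p = 0.425).

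The array values show how Ppp1r15a was distributed. In the node its log2 signal was 7.93, 7.92 and 8.72 on day 4 replicates 1, 2 and 3, and 9.72, 9.56 and 9.54 at week 2. In the lung it was 8.09, 8.05 and 9.00 at day 4, 9.11, 9.28 and 9.21 at week 2, 9.01 and 9.27 in naive mice, and 9.02 and 9.39 at 4 months. The day 4 arrays were thus below the week 2 arrays in both tissues without overlap, and replicate 3 was the highest of the day 4 arrays in both. That replicate lay just below the lowest week 2 array in the lung and further below them in the node. Atf3, a stress-induced transcription factor downstream of Atf4, was also highest on day 4 replicate 3 in both tissues. It was at 5.73, 5.92 and 7.81 in day 4 node and at 8.90 to 9.06 at week 2, and at 7.03, 7.04 and 8.87 in day 4 lung, where replicate 3 was above all of week 2 (8.51 to 8.62). The rise of Ppp1r15a in the node kept its call in every alternative run, and leaving out 1 array at a time gave 1.28 to 1.68.

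In the lung, the same step gave 0 called members by limma's test, against 0.419% of all genes called higher and 1.39% lower. At an unadjusted p under 0.05 there were 3 members higher and 9 lower, 33.3% of the members against 11.7% of all genes. Ppp1r15a was 0.82 ± 0.25 higher at week 2 (adjusted p = 0.134), Dnajb9 0.67 ± 0.20 (0.114) and Hspa5 0.45 ± 0.18 (0.297). With arrays weighted by their quality, these 3 members passed as higher (2.27% of all genes did) and 5 passed as lower (4.08%): Sdf2l1, Sec61b, Ssr1, Ssr3 and Srp9. Leaving out the 3 macrophage-rich lung arrays (replicates 1 and 2 of day 4, replicate 3 of week 2) leaves 1 array at day 4. That lone array is assumed to vary like the other groups. Ppp1r15a was then 0.20 ± 0.34 higher, Dnajb9 0.36 ± 0.30 and Hspa5 0.22 ± 0.29, and none passed. In the node the macrophage marker means were 3.78 to 4.02, and day 4 replicate 3 stood apart there too for Ppp1r15a (8.72, against 7.93 and 7.92). The lung arrays kept were not free of macrophage transcripts. Chil3 was at 9.19 on day 4 replicate 3, against 5.88 and 5.52 on the week 2 arrays kept. Lyz2 was at 9.67 on naive replicate 1 and at 9.19 on 4-month replicate 1, both kept. On the day 4 arrays left out it was at 9.46 and 9.52. The part of macrophage transcripts in the step of either tissue was not tested further.

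At day 4, Dnajb9 and Hspa5 had less spread than Ppp1r15a. Dnajb9 was at 8.17, 7.85 and 8.44 in day 4 lung and at 8.67, 8.92 and 8.88 at week 2. In the node it was at 8.45, 7.93 and 8.41, and then at 8.76, 9.22 and 9.16. Neither tissue's groups overlapped, and the naive lung (8.51 and 8.52) and the 4-month lung (8.81 and 8.57) lay above all of day 4 lung. Hspa5 was at 8.62, 8.71 and 8.96 in day 4 lung against 9.15, 9.22 and 9.26 at week 2. In the node it was at 8.68, 8.68 and 8.97 against 9.25, 9.16 and 9.19. Here too week 2 was above day 4 on every array, with the naive lung (9.00 and 8.63) within the range of day 4 apart from its upper array.

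Among the other sensors and transcription factors, Atf4 was 0.41 ± 0.22 higher at week 2 in the lung and 0.32 ± 0.22 in the node, and neither passed. Its day 4 lung arrays were at 9.43, 9.38 and 10.23, so that replicate 3 was above all of week 2 (9.92, 10.13 and 10.21). Ddit3 was at 6.86, 6.86 and 6.76 in day 4 lung against 7.27, 7.18 and 7.30 at week 2, without overlap, whereas its node arrays overlapped. Ern1 on the day 4 lung arrays was at 7.42, 7.93 and 8.53, a wider spread than the 7.91 to 8.02 of week 2. Xbp1, measured as total message and not as its spliced form, differed by -0.06 ± 0.18 in the lung and -0.25 ± 0.18 in the node. Atf6 differed by 0.18 ± 0.20 and 0.13 ± 0.20.

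The translocation genes mostly lay the other way. These encode the Sec61 channel (Sec61a1, Sec61b, Sec61g), its partners Sec62 and Sec63, the translocon-associated TRAP complex (Ssr1, Ssr2, Ssr3) and Srp9 of the signal recognition particle. Their median difference, week 2 minus day 4, was -0.62 in the lung and -0.24 in the node. After subtraction of the median of genes of equal signal level it was -0.60 and -0.24. Sec62 and Sec63 were instead higher at week 2 in the lung, by group means of 7.46 to 7.58 and 6.81 to 6.87. Sec62 was also higher in the node (7.44 to 7.53). In the lung 7 of the 9 had every week 2 array below every day 4 array, against 1 of 9 in the node. Over all 36 members, 13 were apart and lower in the lung (36.1%) and 4 apart and higher (11.1%), while 11.9% of all genes were apart in each direction. In the node 8 were apart and lower (22.2%, against 8.51% of all genes) and 4 apart and higher (11.1%, against 7.67%). The share among genes of equal signal level was not computed. On their dimmer probe sets, Sec61b, Ssr1, Spcs2 and Edem1 overlapped in both the lung and the node. That of Sec61b was at 4.18, 3.73 and 3.45 in day 4 node and at 4.16, 4.65 and 4.35 at week 2. That of Ssr1 was at 7.62, 7.32 and 7.49 in day 4 lung and at 7.08, 7.31 and 7.43 at week 2.

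Ssr3 was at 7.33, 7.09 and 7.20 in day 4 lung and at 6.58, 6.65 and 6.47 at week 2, a difference of -0.64 ± 0.17 (adjusted p = 0.0777). Srp9 went from 8.77, 8.80 and 8.47 to 7.97, 8.09 and 8.08, a difference of -0.63 ± 0.17 (adjusted p = 0.0850). Neither passed in the fit of all arrays, and both passed when the naive and 4-month arrays were left out of the fit (12 arrays; adjusted p = 0.0475 and 0.0309; 2.19% of all genes called lower and 0.915% higher), an alternative added after the data were seen. Sec61b was at 10.62, 10.29 and 9.76 in day 4 lung and at 9.54, 9.48 and 9.38 at week 2. In the node Sec61b was at 10.64, 10.69 and 9.81 and then at 10.20, 10.38 and 9.27. There the groups overlapped, replicate 3 being the lowest array at both times. The signal peptidase subunits Spcs1, Spcs2 and Spcs3, which help to cut the signal peptide from the entering chain, had a median difference of -0.30 in the lung and -0.11 in the node.

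**Figure D2:**
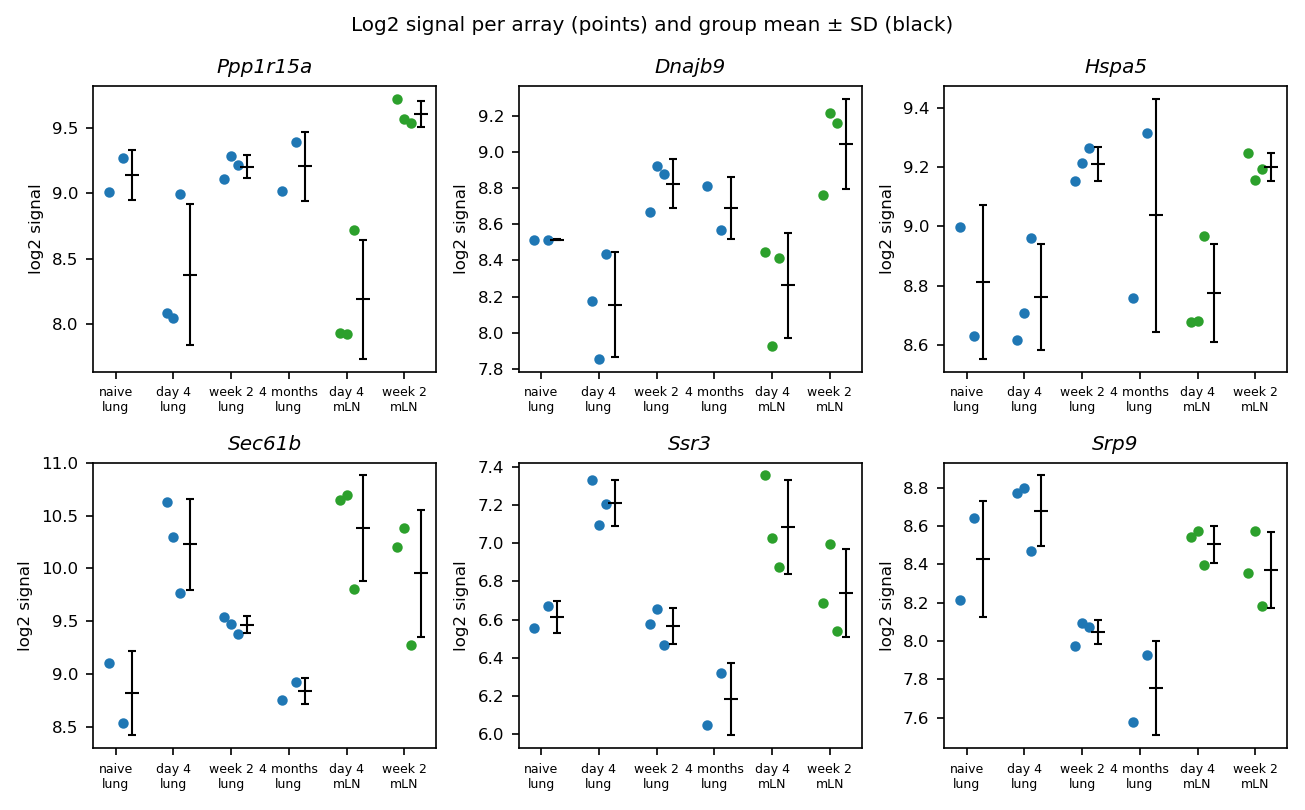
Log2 signal of Ppp1r15a, Dnajb9, Hspa5, Sec61b, Ssr3 and Srp9 on every array (points), with the group mean as a bar, in the 6 groups of tissue and time. The first 3 genes are lower at day 4 than at week 2 in lung and node, and the last 3 are higher at day 4 than at week 2 in the lung.

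The members with ERSE differed among themselves in this step. Between day 4 and week 2 in the lung, Hspa5 differed by 0.45, while the other 7 members with this element ranged from -0.18 for Pdia6 to 0.06 for Syvn1. Hsp90b1 (GRP94, the ER form of Hsp90) differed by -0.00 ± 0.17, Calr by -0.03 ± 0.19, Canx by -0.08 ± 0.16 and Dnajc3 by 0.02 ± 0.17. Calr and Canx encode the lectin chaperones calreticulin and calnexin, and Dnajc3 encodes a BiP cofactor that also inhibits Perk. None of these 4 differences exceeded its standard error. In the node Hspa5 differed by 0.43 and the other 7 by -0.23 (Canx) to 0.06 (Dnajc3), with Hsp90b1 at -0.20 and Creld2 at -0.17. Canx was at 9.30, 9.22 and 9.40 in day 4 node and at 9.15, 9.12 and 8.98 at week 2, without overlap, and did not pass (adjusted p = 0.819).

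The differences of lung and node ran alike over the members. Week 2 minus day 4 had the same sign in both tissues for 31 of 36 members, higher for 10 and lower for 21, and the Pearson correlation over members was 0.838 (Spearman 0.783). Over all genes the same sign was found for 57.0%, with a Pearson correlation of 0.40 and a Spearman of 0.245. All genes include many that are dimmer than the members, and the agreement among genes of equal signal level was not computed. These 2 comparisons share no array, but the points are genes measured on the same arrays and not independent replicates, so the correlations describe these arrays. The test of the difference between the tissues' steps called 0 members (limma), where 0.0676% of all genes were called higher and 0.113% lower. At an unadjusted p under 0.05 there were 0 members, against 6.38% of all genes. The largest such difference was that of Ppp1r15a, 0.59 ± 0.35 larger in the node (adjusted p = 0.890).

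**Figure D3:**
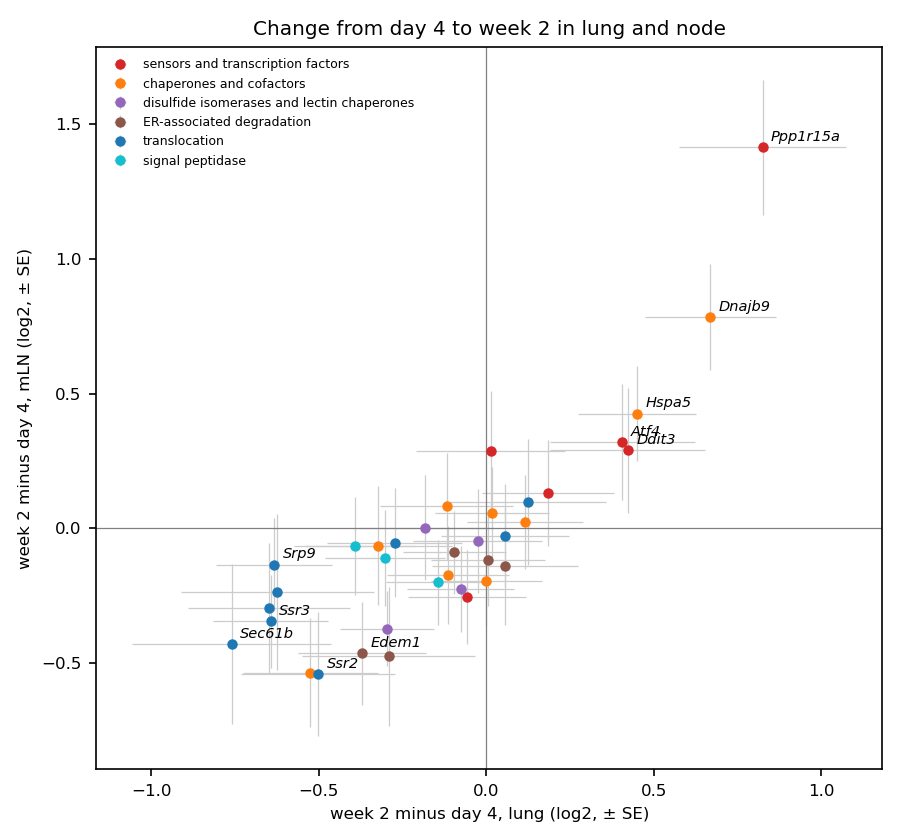
Week 2 minus day 4 difference (log2) of each of the 36 members in the lung (horizontal axis) and in the node (vertical axis), with standard errors of the fit. Ppp1r15a, Dnajb9 and Hspa5 are at the upper right, and the Sec61, TRAP and Edem genes at the lower left.

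No member passed between node and lung at a given time. At day 4 limma's test called 0 members, where 0.978% of all genes were called higher in the node and 1.35% lower, and 1 member in each direction passed at an unadjusted p under 0.05 (5.56% of members, 10.5% of all genes). At week 2 it called 0 again (0.334% of all genes higher and 0.446% lower), with 1 higher and 0 lower unadjusted (2.78% of members, 9.55% of all genes). The median of the 36 differences was 0.02 at day 4 and 0.06 at week 2. Dnajc3 was apart and higher in the node at both times: 9.47, 9.21 and 9.42 against 8.97, 8.99 and 8.93 in the lung at day 4, and 9.47, 9.28 and 9.52 against 8.87, 9.14 and 8.93 at week 2.

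Compared with naive lung, a set of folding and entry genes was higher in day 4 ILC2s. Of the 36 members, 10 passed as higher (27.8%, against 10.8% of all genes) and 0 as lower (5.73% of all genes), and 1 was lower at an unadjusted p under 0.05 (14.2% of all genes). The largest rise was that of Sec61b, by 1.41 ± 0.33 (adjusted p = 0.00887), from 9.10 and 8.54 in naive lung to 10.62, 10.29 and 9.76. The signal peptidase subunits Spcs1 and Spcs2 rose by 0.81 and 0.77, Ssr1 and Ssr3 by 0.89 and 0.60, and the BiP cofactor Dnajb11 by 0.90. The others that rose were Edem1 (0.71), which extracts misfolded glycoproteins for degradation, the isomerase Pdia3 (0.62), Xbp1 (0.62) and Hsp90b1 (0.59). Sec61b, Ssr1, Spcs2 and Edem1 each have a dimmer probe set. Day 4 was above naive lung without overlap on those of Sec61b, Ssr1 and Edem1, while that of Spcs2 overlapped. For Ssr1 the dimmer set rose less, from 7.21 and 7.19 to 7.62, 7.32 and 7.49. Edem2, related to Edem1, and the secreted ER factor Manf were 0.77 ± 0.29 and 0.46 ± 0.22 higher (adjusted p = 0.0798 and 0.171) and did not pass. Xbp1 was at 6.14 and 5.68 in naive lung and at 6.67, 6.32 and 6.58 at day 4.

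These rises were near those of other genes of the same signal level. The members are bright: the median member lay at the 93.6th percentile of level among all genes, and the lowest at the 74.4th. Genes in the 4 brightest of 20 bins of level had median differences of 0.37 to 0.48 between day 4 and naive lung, and the median member differed by 0.43. After subtraction of the median of genes of equal level, the median member was at 0.07, with 20 members above 0 and 16 below. With a cyclic loess normalization, which removes level-dependent differences between arrays, 0 members passed as higher, against 5.51% of all genes, and at an unadjusted p under 0.05 there were 2 higher and 5 lower (12.5% and 11.4% of all genes). In that fit 2 members passed as lower, against 3.89% of all genes: Ppp1r15a by -1.17 ± 0.27 (adjusted p = 0.0109) and Dnajb9 by -0.78 ± 0.24 (adjusted p = 0.0476). On the deposited values these were -0.76 ± 0.28 (adjusted p = 0.0725) and -0.36 ± 0.22 (0.274). With the macrophage-rich arrays left out, Ppp1r15a differed by -0.14 ± 0.34 and 1 member passed as higher, Ern1 (1.23 ± 0.27, adjusted p = 0.0247), on the single day 4 array left. The naive arrays also had the highest T cell marker means, whose part in these differences was not tested.

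At week 2, limma's test called 0 members against naive lung, where 6.75% of all genes were called higher and 2.87% lower, and 10 were higher and 0 lower at an unadjusted p under 0.05. That is 27.8% of the members against 25.7% of all genes. The median member was 0.33 higher, and -0.03 after subtraction of genes of equal level. Ddit3 had the largest difference, 0.81 ± 0.26 (adjusted p = 0.0579), from 6.16 and 6.71 to 7.27, 7.18 and 7.30. Srp9 had the lowest, -0.38 ± 0.19, and with loess it was the single member that passed, by -0.77 ± 0.18 (adjusted p = 0.0269; 2.17% of all genes higher and 1.57% lower).

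At 4 months most members were lower than at day 4 or week 2. Against day 4, 21 of 36 passed as lower (58.3%, against 16.6% of all genes) and 1 as higher (2.78%, against 9.02%), and the median member differed by -0.67 where the median gene differed by 0.04. Against week 2, 8 passed as lower (22.2%, against 11.5% of all genes) and 0 as higher (4.85% of all genes), also 0 at an unadjusted p under 0.05 (12.9% of all genes), with a median of -0.47. All 4 measured isomerases and lectin chaperones (Pdia3, Pdia6, Calr, Canx), 6 of 9 translocation genes and all 3 signal peptidase subunits were among those that fell from day 4.

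Sec61b had the largest fall from day 4, a change of -1.39 ± 0.33 (adjusted p = 0.00670), to 8.75 and 8.92 at 4 months. Herpud1, a scaffold of ER-associated degradation and a classic target of the response, had the largest fall from week 2, a change of -0.95 ± 0.19 (adjusted p = 0.00512). It was at 7.18 and 7.11 in naive lung, at 7.41, 7.37 and 7.73 at day 4, at 7.38, 7.66 and 7.49 at week 2 and at 6.41 and 6.71 at 4 months. Both 4-month arrays were below every other array of the study. Sel1l, which partners the ubiquitin ligase Syvn1, changed by -0.79 ± 0.17 from week 2 (adjusted p = 0.00788), to 5.86 and 5.83. Canx, Xbp1 and Pdia6 each fell by 0.69 from week 2 on the log2 scale, Hyou1 by 0.64, Dnajc3 by 0.60 and Pdia3 by 0.56.

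The falls were set against genes of equal level. In the 4 brightest bins the median gene differed between 4 months and day 4 by -0.52 to -0.67. After subtraction the median member was at -0.15 against day 4, with 14 members above 0 and 22 below, and at 0.06 against week 2, with 21 above and 15 below. With cyclic loess 0 of the 21 falls from day 4 passed, against 5.36% of all genes called lower, and 0 of the 8 falls from week 2 (1.01% of all genes lower, 1.38% higher). At an unadjusted p under 0.05 with loess, 6 members were higher and 4 lower than at day 4 (12.6% and 12.4% of all genes), and 2 higher and 0 lower than at week 2 (9.35% and 7.76%). The 3 members that passed with loess against day 4 were higher, where 5.07% of all genes were. They were Ppp1r15a, by 1.40 ± 0.27 (adjusted p = 0.00332), Dnajb9, by 1.14 ± 0.24 (0.00591), and Hspa5, by 0.85 ± 0.17 (0.00578). On the deposited values these 3 differed by 0.83 ± 0.28 (adjusted p = 0.0394), 0.54 ± 0.22 (0.0816) and 0.28 ± 0.20 (0.316), and without the macrophage-rich arrays by 0.21 ± 0.34, 0.25 ± 0.30 and 0.08 ± 0.29.

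**Figure D4:**
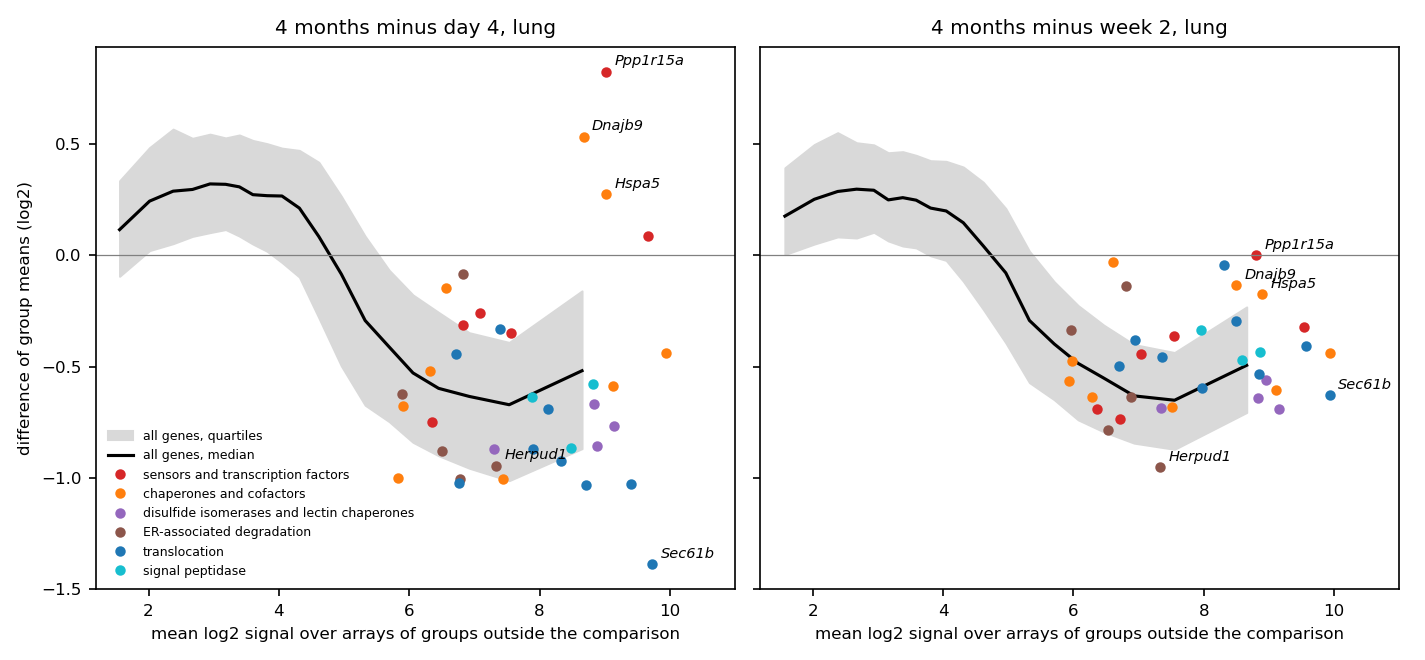
Change at 4 months against day 4 (left) and week 2 (right), log2, plotted against signal level, the mean log2 over the groups outside the comparison. Points are the 36 members, and the line and band are the median and quartiles of all genes in 20 bins of level. The members lie around the line. Above the median of their bin are 14 members on the left and 21 on the right, with Ppp1r15a, Dnajb9 and Hspa5 among them in both.

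The 2 arrays at 4 months did not carry the falls alike. The median deviation of the members from their own means over all arrays was -0.68 on replicate 1 and -0.29 on replicate 2, against -0.17 and -0.24 on the naive arrays. Without 4-month replicate 1, 4 members passed against day 4 and 1 against week 2, where 9.99% and 3.58% of all genes passed. Without replicate 2, 25 and 17 members passed, with 30.7% and 25.2% of all genes. The B and plasma cell marker means at 4 months were 4.96 and 4.78. Calr shows the difference between the arrays, with 7.74 and 8.55 on the 4-month arrays and 8.75 to 8.86 at day 4.

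Against naive lung, limma's test called 0 members at 4 months, where 0.717% of all genes were called higher and 1.25% lower. At an unadjusted p under 0.05, 0 members were higher and 9 lower, where 7.12% of all genes were higher and 9.89% lower. The median member differed by -0.18, and by -0.04 after subtraction of genes of equal level. Pdia6 had the largest difference, -0.85 ± 0.24 (adjusted p = 0.0728), from 7.40 and 7.14 to 6.14 and 6.70. Ppp1r15a, Dnajb9 and Hspa5 differed by 0.07 ± 0.31, 0.17 ± 0.24 and 0.22 ± 0.22.

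A further 126 measured genes of the pathway, in 6 lists, were counted in the same way. Against naive lung at day 4, 33 passed as higher (26.2%, against 10.8% of all genes) and 2 as lower (1.59%, against 5.73%). At 4 months 0 passed as higher and 61 as lower (48.4%, against 16.6% of all genes) against day 4, 1 being higher at an unadjusted p under 0.05 (16.8% of all genes). Against week 2, 1 passed as higher and 39 as lower (31.0%, against 11.5%). With cyclic loess the day 4 counts became 14 higher and 6 lower (5.51% and 3.89% of all genes). Those at 4 months became 1 and 8 against day 4 (5.07% and 5.36%) and 0 and 3 against week 2 (1.38% and 1.01%), with 7 higher and 14 lower at an unadjusted p under 0.05 in the last. At 4 months against naive lung, 0 passed as higher and 5 as lower (3.97%, against 1.25% of all genes). With loess 2 passed as lower there, where 0.857% of all genes did. They were Rnf139 of ER-associated degradation (-0.92, adjusted p = 0.0309, limma) and the signal recognition particle subunit Srp68 (-0.87, adjusted p = 0.039). Fewer calls were thus made in these lists once level was taken into account.

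Of the 15 measured genes of the Perk and Atf4 arm, 5 passed with loess as higher at day 4 than in naive lung (5.51% of all genes did) and 2 as lower at 4 months than at week 2 (1.01%). The 5 were the amino acid and one-carbon enzymes Asns, Mthfd2, Psat1 and Shmt2 and the cystine transporter Slc7a11. Slc7a11 was at 3.96 and 3.70 on the macrophage-rich day 4 arrays and at 2.33 on replicate 3, the same as the higher naive array (2.33 and 2.01). Shmt2, the mitochondrial serine hydroxymethyltransferase, was at 5.58 and 5.71 in naive lung, at 7.08, 6.92 and 7.02 at day 4, at 6.77, 6.94 and 7.13 at week 2 and at 4.71 and 5.09 at 4 months. It rose by 1.36 ± 0.25 at day 4 (adjusted p = 0.00188) and changed from week 2 to 4 months by -2.05 ± 0.25 (adjusted p = 0.000273), and with loess by 0.99 and -1.50, both still called. Asns, asparagine synthetase, was at 4.94 and 4.62 in naive lung, at 5.63, 5.70 and 5.91 at day 4, and at 4.09 and 4.29 at 4 months. It changed by -1.56 ± 0.20 from day 4 (adjusted p = 7.89e-05), and by -1.37 with loess. Both genes were lower on the 4-month arrays than on every other array. Mthfd2, a mitochondrial folate enzyme, rose by 1.45 ± 0.27 at day 4 (adjusted p = 0.00203; 1.32 with loess).

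Outside that arm, the ER peroxiredoxin Prdx4 changed from day 4 to 4 months by -1.67 ± 0.33 (adjusted p = 0.00200), from 5.66, 5.71 and 4.99 to 3.39 and 4.17, and by -1.45 with loess. The isomerase P4hb changed by -1.34 ± 0.18 and the signal recognition particle subunit Srp72 by -1.45 ± 0.17, and with loess by -0.70 and -0.84, all still called. Srp72 was at 7.32 and 7.42 at 4 months, below all day 4 arrays (8.87, 8.85 and 8.74). Between day 4 and week 2, Atf3 rose in the node by 2.46 ± 0.47 (adjusted p = 0.00711), the single call of the 126 in that step, and in the lung 0 passed with limma, with 5 higher and 12 lower at an unadjusted p under 0.05 (13.5%, against 11.7% of all genes). In the node at week 2, Atf5 was lower than in the lung by -0.93 ± 0.18 (adjusted p = 0.0162).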

How the data were processed

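The authors deposited log2 signals of probe sets. Per the submitters' processing notes they used Affymetrix Expression Console with RMA, whose versions are not stated there, nor is a genome build. Of 41345 probe sets, 23521 had 1 gene symbol, 1814 several and 16010 none. The probe set with the highest mean was kept per gene, for 22180 genes, and 4 members had more than 1. Group means were fitted to all 16 arrays with limma 3.58.1 (R 4.3.3; 10 residual and 6.52 prior degrees of freedom) and two-sided p-values adjusted by Benjamini-Hochberg over all genes, called under 0.05. Standard errors are limma's. A gene's level was the mean over groups outside the comparison, in 20 bins. The number of arrays limits the precision. All members are named, but only some of the called genes of the further lists are. The members, gene lists and tests were chosen with earlier results of these data known. The procedure was tested on simulated data. The alternatives were other normalizations (medians centred, quantile, cyclic loess), a filter on dim genes, the mean of probe sets, array weights, trend and robust options, fits restricted to the groups compared, a replicate block, leaving out arrays, and 10 bins.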

Additional observations from a re-analysis of the deposited data

How the results depend on the processing

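The counts of members called depended on the treatment of level and of noisy arrays. Day 4 against naive lung, 10 as reported, gave 3 with quantile normalization repeated, 2 each with cyclic loess, array weights and a fit of only the groups compared, and 1 without the macrophage-rich lung arrays. The share of all genes called moved too, from 16.6% to 10.1%, 9.40%, 7.34%, 6.22% and 3.10% in these settings. Week 2 against naive lung, 0 as reported, gave 2 with centred medians or without dim genes, and 1 each with quantile, loess, trend and robust options, and the replicate block (3.74% to 14.0% of all genes). Week 2 against day 4 in the lung (0) gave 8 with array weights, 2 in the fit of 12 arrays and 1 with only the groups compared, with 6.35%, 3.11% and 2.65% of all genes. At 4 months against week 2 (8) the count was 15 with centred medians, 0 with quantile or loess, and 2 with weights, with only the groups compared or without the macrophage-rich arrays. All genes were called at 19.4%, 5.47%, 2.40%, 5.39%, 7.76% and 4.84% there. At 4 months against day 4 (22) it was 4, 3, 14, 11 and 1 with quantile, loess, weights, only the groups compared and without the macrophage-rich arrays, with 13.7%, 10.4%, 13.1%, 14.2% and 5.10% of all genes. In the node (1) it was 2 with centred medians, quantile, no dim genes, trend and robust options, weights and the 12 arrays (1.61% to 2.84% of all genes). Node against lung at day 4 (0) gave 1 without the macrophage-rich arrays (0.906% of all genes).

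The median member against naive lung became 0.0921 (quantile) and 0.0680 (loess) at day 4, 0.0464 and -0.0278 at week 2, and -0.0209 and -0.0059 at 4 months. Against week 2 the 4-month median became -0.5977 with centred medians, -0.0746 with quantile and 0.0488 with loess, and against day 4 it became -0.8159, -0.2037 and -0.1308. From day 4 to 4 months, Spcs1 (0.0042) and Spcs3 (0.0121) changed sign with loess, and Hspa5 ranged from -0.0017 to 0.554 when 1 array at a time was left out, changing sign without 4-month replicate 2. Why these values moved was not tested beyond the levels given above.

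Leaving out 1 array at a time gave 4 to 13 calls for day 4 against naive, 0 to 4 each for week 2 and 4 months against naive, 0 to 2 for week 2 against day 4 in the lung, 1 to 17 and 4 to 25 for 4 months against week 2 and day 4, 1 to 2 in the node, and 0 to 1 for node against lung at day 4. It was 4 for day 4 against naive without day 4 lung replicate 1 or 2, and 2 to 4 for 4 months against week 2 without each week 2 lung replicate. The 4-month median ranged from -0.3765 to 0.0705 against naive, -0.6621 to -0.2558 against week 2 and -0.8605 to -0.4594 against day 4. Whether replicate numbers pair the arrays, by animal or by day, is not stated. Deviations of same-numbered arrays correlated between -0.104 and 0.184, with 2 of 36 pairs over 0.1. Those of different numbers gave -0.173 to 0.137, with 1 of 70 over 0.1. The 2 same-numbered pairs were day 4 lung replicate 3 with node replicate 3, at day 4 (0.184) and week 2 (0.142). With the replicate block 9 members were called for day 4 against naive and 22 for 4 months against day 4. With 2 arrays each in the naive and 4-month groups, small differences were not detectable.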
